A study of Mus musculus with 28 samples.

Results

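The inhibitors of DNA binding Id1, Id2, Id3 and Id4 were taken by gene name from the study's 3 expression tables, and all 4 were found in each. They were 4 of 29413 genes in the table of organoids given bone morphogenetic proteins (the BMP table). They were 4 of 55416 genes in the table of Tgfb-treated organoids (the TGFb table) and in that of mesenchymal cells (the mesenchymal table). The organoids, 3-dimensional cultures of epithelium grown from crypts, came from the small intestine of wild-type C57BL/6 mice and were kept in ENR medium that held no Bmp or Tgfb until a ligand was added. Of the 20 samples of the BMP table, 4 were untreated, 4 received recombinant BMP2, and recombinant BMP3, BMP4, BMP5 and BMP7 went to 3 samples each. In the TGFb table, 3 samples were untreated and 3 received recombinant Tgfb, whose isoform the labels do not give. Each ligand was used at 500 ng/ml for 24 h. The mesenchymal table held 1 fresh sample and 1 immortalised sample of duodenal Pdgfra-positive cells from PdgfraH2BeGFP mice, which carry a green fluorescent reporter of Pdgfra. The immortalised cells had been transduced with the HPV16 E6 gene, a viral gene that acts against p53, then selected with puromycin, sorted on eGFP and expanded. The title of that sample carries the word HIGH.

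Id proteins hold a helix-loop-helix domain but lack the basic stretch that contacts DNA. They bind E proteins, the ubiquitous partners of tissue-specific basic helix-loop-helix (bHLH) factors, and so keep those pairs off their E-box sites. Id1, Id2 and Id3 are known as direct targets of BMP signalling, in which type I and type II receptors lead to phosphorylation of Smad1, Smad5 and Smad9. Smad4 joins these Smads at GC-rich sites of the target genes. In the gut, bHLH factors such as Atoh1 and Neurog3 set the secretory and endocrine lineages.

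Promoter windows of 250 bases before the start site were found for 3 of the 4 members, Id2, Id3 and Id4, in RefSeq (build GRCm38.p6, not the build of the tables). GGCGCC, a palindrome of the GC-rich kind that BMP Smads bind, was present in the windows of Id2 and Id4, and in 9.59% of 32851 promoters. The windows of Id2 and Id4 were 62.8% and 75.6% GC, against a median of 52.4% over all windows, so that share is not one of promoters of like GC content. Of the 250 bases of the Id2 window, 161 lay in an annotated exon. The window of Id3 held none of the motifs searched. A stretch of each is shown because it holds the match, in capitals, in a member that rose with several ligands (Id2) and in one that rose with none (Id4). The stretches lie at chr12:25096254-25096342 on the minus strand (Id2, bases -250 to -162 from the start site) and chr13:48260949-48261037 on the plus strand (Id4, bases -167 to -79).
Id2: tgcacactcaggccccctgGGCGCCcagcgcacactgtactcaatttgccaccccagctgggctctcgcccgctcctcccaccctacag
Id4: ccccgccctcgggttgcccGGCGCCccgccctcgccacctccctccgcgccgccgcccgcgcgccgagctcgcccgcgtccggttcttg
The match began at base -231 in Id2 and at base -148 in Id4. GGCGGC, searched on both strands like the other motifs, was found in 18.5% of promoters and at 2 overlapping places in Id4. The E-box CANNTG was found in 66.2% of promoters and once in Id2, at base -196. GTCTAGAC, present in 0.167% of promoters, was in none of the 3 windows.

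Values in the BMP table are normalized counts from libraries of 21356259 to 24782286 recovered reads (approximate, since the values are rounded to 3 digits), in which 1 read was worth 0.826 to 1.28. They are not scaled by gene length, so levels of different genes are compared only in the other tables, whose values are transcripts per 1000000 (TPM) of unknown depth. All 7 epithelial markers were found in every organoid group. In the BMP table they summed to 98140 to 109310 normalized counts untreated, 100680 to 111590 with BMP3 and 176880 to 294440 with BMP5. The sums were 218080 to 310570 with BMP7, 244430 to 350100 with BMP4 and 585420 to 751040 with BMP2. In the TGFb table they were 2309 to 2525 TPM untreated and 8514 to 11385.5 TPM with Tgfb. Cdx2, 1 of the 7, overlapped with untreated for BMP2 and was lower with Tgfb. Of 8 mesenchymal markers, 6 were in the BMP table. They summed to 124 to 207 normalized counts in untreated samples, 71.7 to 91.8 with BMP2 and 25.1 to 28.5 with BMP4. Vim made up most of the untreated sum and was at 119 to 180 untreated and 31.6 to 37.6 with BMP2. Pdgfra went the other way, at 0 to 1.78 untreated and 12.8 to 37.5 with BMP2, while Col1a1 overlapped (0.826 to 19.5 and 10.2 to 20.5). Of 6 endothelial markers, 5 were in the BMP table and summed to 588 to 785 untreated, 870 to 1040 with BMP2 and 879 to 1043 with BMP4, mostly from Pecam1, while Kdr was at 2.56 or less in each sample and Cdh5 was at 0 untreated and at 22.7 to 40.9 with BMP2. Summed stem cell markers (Lgr5, Olfm4, Ascl2) were at 89348 to 113445 normalized counts in untreated samples and at 86906 to 108409 with BMP3. They were at 23399 to 69214 with BMP5, 20399 to 24833 with BMP7, 1563 to 3284 with BMP4 and 92.9 to 607 with BMP2. Olfm4 made up most of the untreated sum (84000 to 110000). Ascl2 was at 290 to 363 untreated and did not fall with BMP5 (300 to 404) or BMP7 (349 to 439). Summed enterocyte markers (Alpi, Fabp1, Fabp2, Apoa1) were at 223800 to 273000 with BMP4 and at 18950 to 47370 in all other groups. Within that list Fabp1 was at 10800 to 19600 untreated and lower with BMP2 (912 to 2900), BMP5 (5590 to 9190) and BMP7 (5080 to 7880). Fabp2 was at 2570 to 5010 untreated and lower with BMP5 (1120 to 2240) and BMP7 (1360 to 2450). Alpi and Apoa1 overlapped with untreated for BMP2, BMP5 and BMP7, as did Fabp2 for BMP2. The part of these shifts in cell markers in the Id results was not tested. In bulk RNA, fewer cells of a type and less RNA per cell cannot be told apart. The labels do not say whether replicates came from separate cultures or animals, so p-values measure only the spread between these samples.

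Against untreated organoids, 3 of the 4 Id genes rose with BMP2, BMP4 and BMP7, and 2 of the 4 rose with BMP5. With BMP2, 36.8% of the 14746 genes tested were higher and 38.4% lower, and with BMP4 33.7% were higher and 31.4% lower. With BMP7, 19.2% were higher and 13.2% lower, and with BMP5 16.5% were higher and 9.87% lower. By p, Id1 ranked 1 among all genes with BMP7, 11 with BMP5, 37 with BMP4 and 87 with BMP2. The split of calls depended on the scaling: of genes called, 48.9% were higher with BMP2 as deposited and 31.8% with every sample scaled to the same total, and for BMP4 these shares were 51.7% and 31.1%. For BMP7 they were 59.4% and 48.7%, and for BMP5 62.5% as deposited and 51.2% after quantile normalization. Under scaling to the same total, the log2 change of the middle gene shifted by -0.39 with BMP4 and -0.45 with BMP2. The calls of Id1, Id2 and Id3 against untreated held under it. Calls rest on limma with adjustment over all genes tested and a threshold of 0.05, and log2 fold changes are on the log2(value + 1) scale.

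Id1, a BMP-responsive member widely used as a readout of the pathway, was at 114, 112, 134 and 171 normalized counts in untreated replicates II, III, IV and VI. With BMP2 it was at 2800, 2770, 2700 and 2970 in the replicates of the same numbers. The BMP4 values were 2560, 1960 and 3510, those with BMP7 2330, 1480 and 1800, and those with BMP5 667, 1070 and 792 (replicates II, III and VI). The BMP2 samples were the most even, and every sample of these 4 ligands lay above every untreated one. The log2 fold change was 4.41 (SE 0.180) with BMP2 and 4.30 with BMP4, against 3.80 with BMP7 and 2.65 with BMP5 (SE 0.194 each for the last 3). The limma adjusted p lay between 4.16e-13 and 7.26e-08, and the 4 calls held in all alternatives run.

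Id3, a member known for its roles in lymphocytes and vessels, was at 33.7, 29.9, 20.4 and 32.2 normalized counts in untreated replicates II, III, IV and VI. It was at 2050, 2070, 1680 and 1770 with BMP2 and at 3030, 1940 and 2670 with BMP4. With BMP7 it was at 1240, 698 and 594, and with BMP5 at 123, 378 and 61.1. No treated sample of these 4 ligands overlapped with the untreated ones, but the BMP5 samples ranged from 61.1 to 378. Its log2 fold change was 6.41 (SE 0.421) with BMP4, 6.00 (SE 0.390) with BMP2, 4.76 (SE 0.421) with BMP7 and 2.27 (SE 0.421) with BMP5. The limma adjusted p was 0.000534 with BMP5 and at most 1.88e-07 with the other 3, and these calls also held in all alternatives run.

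**Figure D1:**
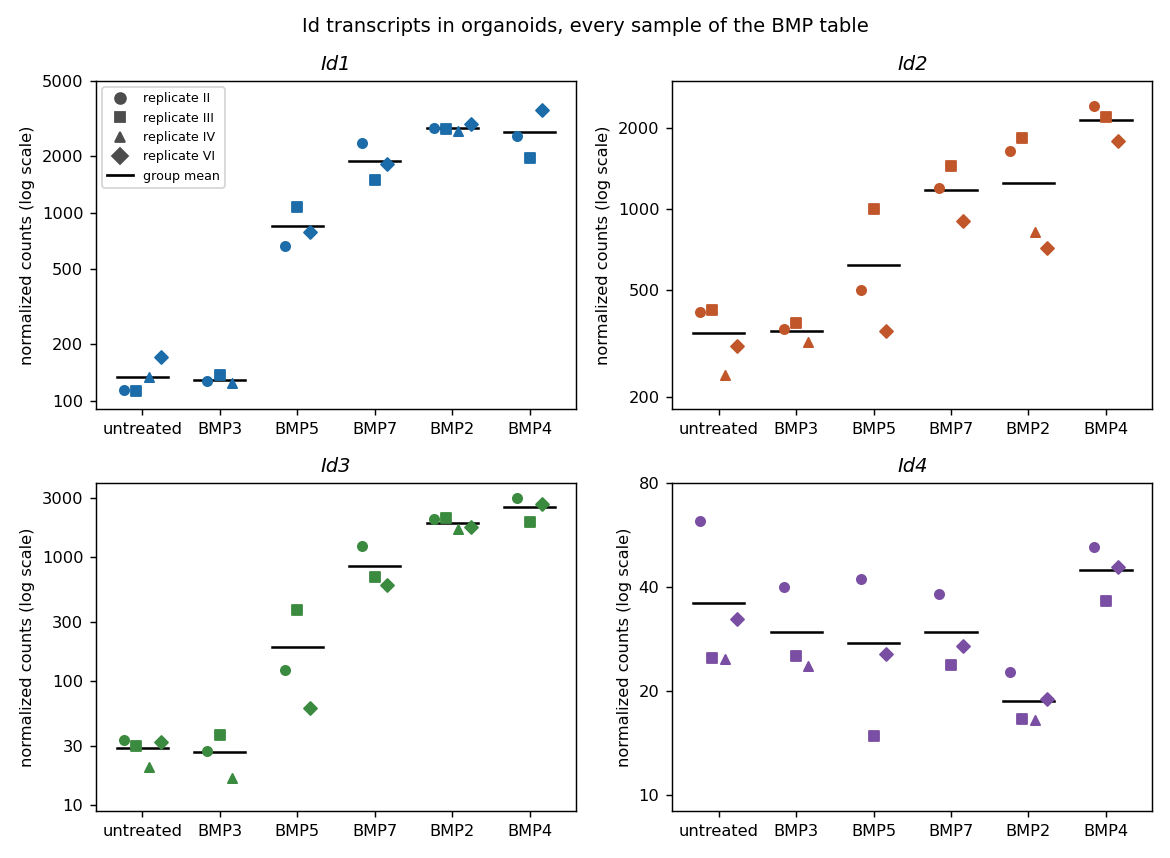
Normalized counts (log scale) of Id1, Id2, Id3 and Id4 in each sample of the BMP table by ligand, with symbols for the replicate number in the sample title and a line at the group mean. Id1 and Id3 step up from BMP5 over BMP7 to BMP2 and BMP4, while Id4 stays between 14.8 and 62.2 normalized counts in all groups.

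Id2, a member known for its role in the development of lymphoid cells, rose with 3 of these ligands. It was at 413, 421, 241 and 310 normalized counts in untreated replicates II, III, IV and VI. It was at 1640, 1840, 820 and 715 with BMP2, at 2420, 2200 and 1800 with BMP4, and at 1200, 1450 and 900 with BMP7. These groups did not overlap with the untreated samples, whereas the BMP5 values of 501, 1000 and 351 did. The log2 fold change was 2.65 (SE 0.336) with BMP4, 1.78 (SE 0.336) with BMP7 and 1.77 (SE 0.311) with BMP2, with limma adjusted p of 1.54e-06, 0.000496 and 4.55e-05. With BMP5 it was 0.73 (95% confidence interval 0.02 to 1.44), which did not pass (limma adjusted p 0.122). With replicate numbers as blocks the BMP5 value was 0.62, and the limma adjusted p for Id2 was 0.0291.

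Id2 also differed by replicate number. In each of the 6 groups, the samples numbered II and III lay above those numbered IV or VI that the group held. In untreated organoids, 413 and 421 stood against 241 and 310 normalized counts, and with BMP2, 1640 and 1840 stood against 820 and 715. The ratio to the untreated sample of the same number was 5.23 to 5.86 with BMP4, 2.90 to 3.44 with BMP7, 2.31 to 4.37 with BMP2, 1.13 to 2.38 with BMP5 and 0.867 to 1.32 with BMP3. In the check of correlations, however, the numbers did not pair BMP2 with untreated samples at replicate III (0.018), though they did at II, IV and VI (0.195 to 0.421). What the numbers stand for is not stated in the labels.

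**Figure D2:**
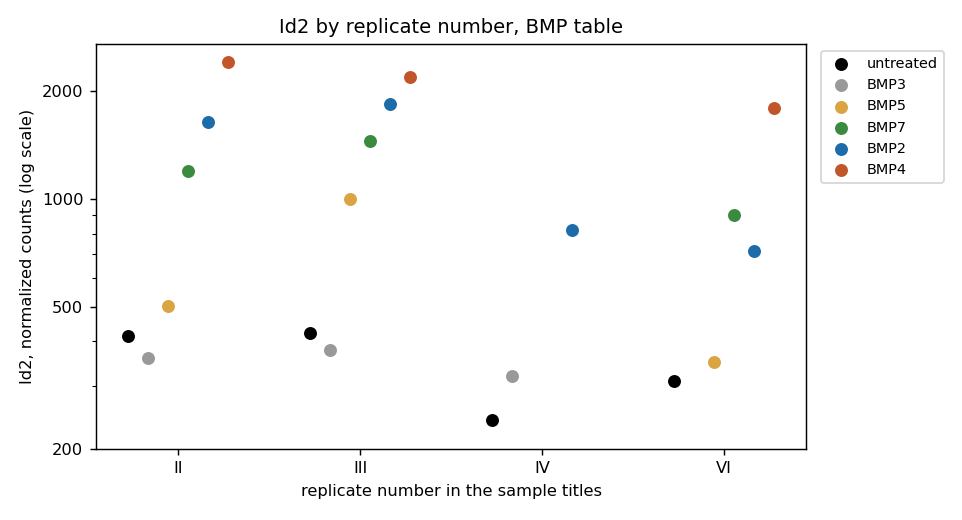
Id2 in normalized counts (log scale) by the replicate number in the sample titles, with a colour for each ligand. Points at II and III lie above those at IV and VI for every ligand, and BMP4 is the highest point at each number that has a BMP4 sample.

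Id4, a member known from neural and mammary cells, did not rise with any ligand. It was at 62.2, 24.9, 24.8 and 32.2 normalized counts in untreated replicates II, III, IV and VI, and at 22.7, 16.6, 16.5 and 19 with BMP2. The groups did not overlap, with the highest BMP2 value at 22.7 and the lowest untreated one at 24.8. Id4 fell by 0.82 on the log2 scale with BMP2 (SE 0.321, limma adjusted p 0.0283). The call was lost without untreated replicate II, where the value was -0.52 (adjusted p 0.131), without BMP2 replicate III (adjusted p 0.0608) or IV (adjusted p 0.0608), and after quantile normalization, where it was -0.70 (adjusted p 0.0715). With BMP4, Id4 was at 52.1, 36.5 and 45.5, with BMP5 at 42.2, 14.8 and 25.5, and with BMP7 at 38.1, 23.7 and 26.9. All 3 groups overlapped with the untreated samples, and none of the differences passed (limma adjusted p 0.332 with BMP4, 0.447 with BMP5 and 0.690 with BMP7). Replicate II was the highest Id4 sample in each of the 6 groups. Id4 overlaps genes on the opposite strand in GENCODE (build GRCm38), and the labels do not state whether strand was used in counting, so its low counts are uncertain.

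BMP3, which unlike the other BMPs tested is known as an antagonist of BMP signalling in several settings, gave no call for any of the 4 members. Id1 was at 127, 136 and 124 normalized counts in BMP3 replicates II, III and IV. Id2 was at 358, 377 and 319, Id3 at 27.6, 37.2 and 16.6, and Id4 at 40, 25.3 and 23.6. Each range overlapped with that of the untreated samples. The log2 difference was -0.02 for Id1 (95% confidence interval -0.43 to 0.39), 0.05 for Id2 (-0.65 to 0.76), -0.14 for Id3 (-1.03 to 0.74) and -0.21 for Id4 (-0.93 to 0.52). Across all genes, limma called 0 with BMP3 (0%), while 110 had an unadjusted p under 0.05, and edgeR called 0 and DESeq2 called 1.

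**Figure D3:**
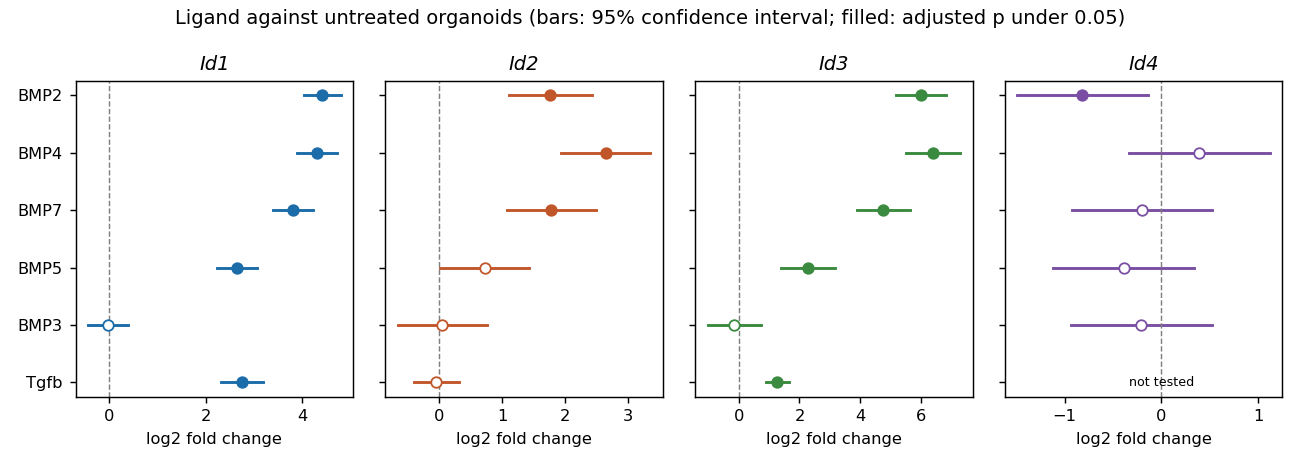
Log2 fold change against the untreated organoids of the same table for each Id gene and ligand, with bars for the 95% confidence interval and filled points for adjusted p under 0.05. Id1 is at 4.41 with BMP2 and 2.75 with Tgfb, Id2 is near 0 with BMP3 and Tgfb, and Id4 passes only with BMP2, at -0.82.

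The proportions of the members within a sample changed along with their levels. The count of Id3 divided by that of Id1 was 0.152 to 0.296 in untreated samples and 0.134 to 0.274 with BMP3. With BMP4 it was 0.761 to 1.18, with BMP2 0.596 to 0.747 and with BMP7 0.330 to 0.532, all above the untreated range. With BMP5 it was 0.0771 to 0.353 and overlapped with the untreated range. The count of Id2 divided by that of Id1 went from 1.80 to 3.76 in untreated samples to 0.241 to 1.12 over the samples of BMP2, BMP4, BMP5 and BMP7. These ratios also depend on gene length, so they are compared only between samples, and the shifts were not tested.

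The next question was whether the ligands differed from each other, with all 6 pairs of BMP2, BMP4, BMP5 and BMP7 compared for each member. BMP2 and BMP4 are close relatives, as are BMP5 and BMP7. An F-test over the 5 ligands, which called 84.1% of genes, passed for Id1 (limma adjusted p 5.00e-12), Id3 (3.68e-10), Id2 (1.77e-05) and, near the threshold, Id4 (0.0476). The 5 ligands included BMP3, which gave no call against untreated. A pass therefore does not by itself show a difference among BMP2, BMP4, BMP5 and BMP7, for which the pairs are given. The Id4 call was lost in 13 of 20 fits that left out 1 sample. Id1, Id2 and Id3 were all higher with BMP2 than with BMP5 and higher with BMP4 than with BMP5, contrasts in which 65% and 60.1% of genes differed. Of those genes, 49.6% and 47.3% were higher with BMP2 and BMP4 as deposited, and 26.5% and 27.4% with every sample scaled to the same total. The log2 difference between BMP4 and BMP5 was 1.65 for Id1, 1.92 for Id2 and 4.13 for Id3, and the highest limma adjusted p was 0.000147. For Id2 the difference between BMP2 and BMP5 was 1.04 (adjusted p 0.0113), and it did not pass without BMP5 replicate VI, at 0.70 (adjusted p 0.0907), or with every sample scaled to the same total, at 0.62 (adjusted p 0.126).

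Between BMP2 and BMP4, where 66.8% of genes differed, Id1 and Id3 did not pass. The log2 difference, BMP2 minus BMP4, was 0.11 for Id1 (95% confidence interval -0.30 to 0.52) and -0.41 for Id3 (-1.29 to 0.47). Id2 and Id4 were lower with BMP2 than with BMP4, by -0.88 for Id2 (limma adjusted p 0.0277, over the 6 pairs 0.0261) and by -1.21 for Id4 (0.00485, over the 6 pairs 0.0155). The 4 BMP2 values of Id4, 16.5 to 22.7 normalized counts, lay below its 3 BMP4 values, 36.5 to 52.1, and the call held without each sample. The Id2 call was lost without BMP2 replicate IV (-0.72, adjusted p 0.0848) or VI (-0.65, adjusted p 0.0965) and without BMP4 replicate II (-0.79, adjusted p 0.0892) or III (-0.86, adjusted p 0.0678).

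Against BMP7, where 62.8% of genes differed from BMP2 and 59.8% from BMP4, Id1 and Id3 were lower with BMP7 than with BMP2 or BMP4. Of the genes called, 50.1% were higher with BMP2 and 47.5% with BMP4 as deposited, and 26.7% and 28.7% with every sample scaled to the same total. Id3 was higher with BMP4 by 1.64 (limma adjusted p 0.00413) and with BMP2 by 1.23 (adjusted p 0.0162). The latter was lost without BMP7 replicate III (1.13, adjusted p 0.0571) or VI (1.02, adjusted p 0.0762). Id1 was higher with BMP2 by 0.61 (adjusted p 0.0105), which was lost without BMP7 replicate III (0.46, adjusted p 0.0764), and with BMP4 by 0.50 (adjusted p 0.0448), which was lost in 13 of 20 fits that left out 1 sample. With every sample scaled to the same total these Id1 differences were 0.22 and 0.17, and after quantile normalization 0.33 and 0.29, and none passed. Id2 was higher with BMP4 than with BMP7 by 0.87 (adjusted p 0.0445, lost in 8 of 20 such fits), and did not pass at the same total (0.54) or after quantile normalization (0.71). The Id3 difference between BMP2 and BMP7 was 0.84 at the same total and did not pass. Between BMP2 and BMP7, Id2 differed by -0.01 (95% confidence interval -0.72 to 0.70). Id4 did not pass between BMP7 and any other ligand. With replicate numbers as blocks, Id4 was higher with BMP4 than with BMP7 by 0.59 (limma adjusted p 0.0267) and than with BMP5 by 0.79 (limma adjusted p 0.00515).

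**Figure D4:**
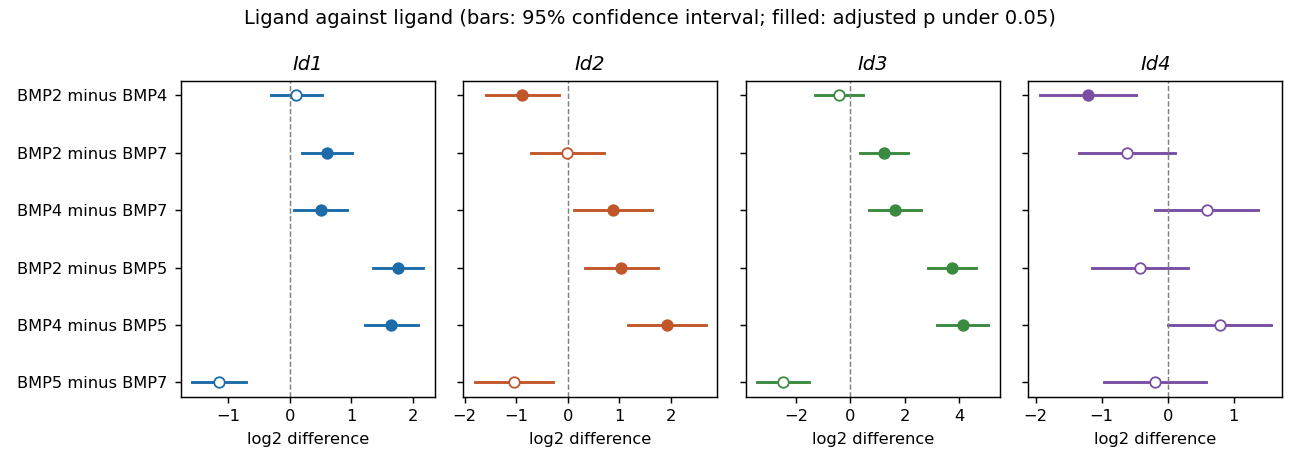
Log2 difference between pairs of ligands for each Id gene, with bars for the 95% confidence interval and filled points for adjusted p under 0.05. Both contrasts with BMP5 are above 0 for Id1, Id2 and Id3 against BMP2 and BMP4, and the Id3 difference between BMP5 and BMP7 is -2.49 with an open point.

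Few genes were called between BMP5 and BMP7, and Id1 and Id3 were among those with the smallest p. Of 14746 genes, 2 passed (0.0136%), Ptprt and Tbx3, named after their values were seen, while 347 had an unadjusted p under 0.05. Counts were 4 by edgeR, 23 by DESeq2 and 6 with replicate numbers as blocks. Id1 ranked 3 and Id3 ranked 4 by p, and neither passed over all genes (limma adjusted p 0.109 each). Id1 was lower with BMP5 by -1.15 (95% confidence interval -1.59 to -0.72) and Id3 by -2.49 (-3.43 to -1.54). Adjusted over the 6 pairs of a gene, p was 5.66e-05 for Id1 and 5.89e-05 for Id3. The 3 BMP5 values lay below the 3 BMP7 values for both genes.

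The size of that difference varied between replicate numbers. BMP7 divided by BMP5 was 3.49, 1.38 and 2.27 for Id1 at replicates II, III and VI, and 10.1, 1.85 and 9.72 for Id3. Replicate III of BMP5 was the highest BMP5 sample for Id1, Id2 and Id3 and the lowest for Id4. Its summed stem cell markers were the lowest of the BMP5 samples, at 23399 against 69214 in II and 35240 in VI, and the part of that in the Id values was not tested. Without BMP5 replicate III, both genes passed (limma adjusted p 0.0239 for Id1 and 0.00053 for Id3). With replicate numbers as blocks Id3 passed (-2.49, limma adjusted p 0.0471). Id2 was at -1.05 (95% confidence interval -1.81 to -0.29), with a limma adjusted p of 1 over all genes and of 0.0182 over the 6 pairs.

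With Tgfb, which signals mainly through Smad2 and Smad3, Id1 and Id3 rose and Id2 did not pass. Of 12959 genes tested, 27.4% were higher and 29.3% lower. Id1 was at 7.71, 8.10 and 9.71 TPM in untreated replicates I, II and III and at 49.5, 62.1 and 79.2 TPM with Tgfb. Id3 was at 2.5, 2.55 and 1.79 TPM untreated and at 5.85, 6.66 and 8.14 TPM with Tgfb. Neither gene's groups overlapped. The log2 fold change was 2.75 for Id1 (SE 0.179, limma adjusted p 5.29e-05) and 1.26 for Id3 (SE 0.157, limma adjusted p 0.000766). Id2 was at 14.8, 16.7 and 14.3 TPM untreated and at 18.3, 14.0 and 12.4 TPM with Tgfb, overlapping ranges with a log2 difference of -0.04 (95% confidence interval -0.39 to 0.31). Id4 was at 0.428, 0.402 and 0.161 TPM untreated and at 0.116, 0.114 and 0.0835 TPM with Tgfb, too low for the filter at a mean of 1 TPM and not tested.

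Since TPM is per length, the members can be ranked here. In all 3 untreated samples the order of levels was Id2, Id1, Id3 and Id4, and in all 3 Tgfb samples it was Id1, Id2, Id3 and Id4. The TPM of Id1 was 0.485 to 0.681 times that of Id2 untreated and 2.70 to 6.36 times with Tgfb. Id1 was 3.08 to 5.44 times Id3 untreated and 8.46 to 9.73 times Id3 with Tgfb, so their ratio moved opposite to that seen with BMP2 and BMP4; the BMP and TGFb tables were scaled separately and the difference was not tested. The sum of the 4 members was 25.4 to 27.8 TPM untreated and 73.8 to 99.9 TPM with Tgfb. Summed mesenchymal markers were 4.91 to 8.02 TPM untreated and 7.35 to 9.60 TPM with Tgfb, with Col1a2, Col3a1, Dcn and Lum at 0. Summed stem cell markers were 2227 to 2648 TPM untreated and 112 to 125 TPM with Tgfb, and their part in the Id values was not tested.

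The mesenchymal samples ranked the members differently, with 1 sample each and no test. In fresh cells Id3 was at 286 TPM, Id2 at 122, Id1 at 44.5 and Id4 at 18.5 TPM. In immortalised cells Id3 was at 136 TPM, Id1 at 45.5, Id2 at 34.3 and Id4 at 4.84 TPM. The ratio of fresh over immortalised was 0.980 for Id1, whereas Id2 (3.56), Id3 (2.10) and Id4 (3.82) were higher in the fresh sample. The sum of the 4 was 471 TPM fresh and 221 TPM immortalised. The difference has no replicate check. All 8 mesenchymal markers were found in both, summing to 17506 TPM fresh and 5939 TPM immortalised. Within that list Pdgfra (37.5 fresh and 113 immortalised), Thy1 (93.7 and 474) and Vim (1830 and 1976) were lower in the fresh sample. Summed markers were higher in the fresh sample for endothelium (21.6 against 1.74 TPM), immune cells (118 against 10.7), glia and neurons (9.41 against 1.54) and epithelium (28.8 against 0.118). The fresh epithelial sum was mostly Krt18 (19.2) and Krt8 (9.10), with Epcam at 0.161 and Cdh1, Vil1 and Cdx2 at 0. The immune sum was mostly Lyz2 (111 against 9.81). Tek (0.327 against 0.490), Cd79a (0 against 0.171) and Elavl4 (0.143 against 0.630) were lower in the fresh sample. Summed smooth muscle markers were lower in the fresh sample, at 6421 against 9041 TPM, mostly from Acta2 (5112 against 7499). Cnn1 was also lower (789 against 1363), but Myh11 (322 against 178) and Des (197 against 1.13) were higher in the fresh sample. The part of these markers in the Id values was not tested.

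**Figure D5:**
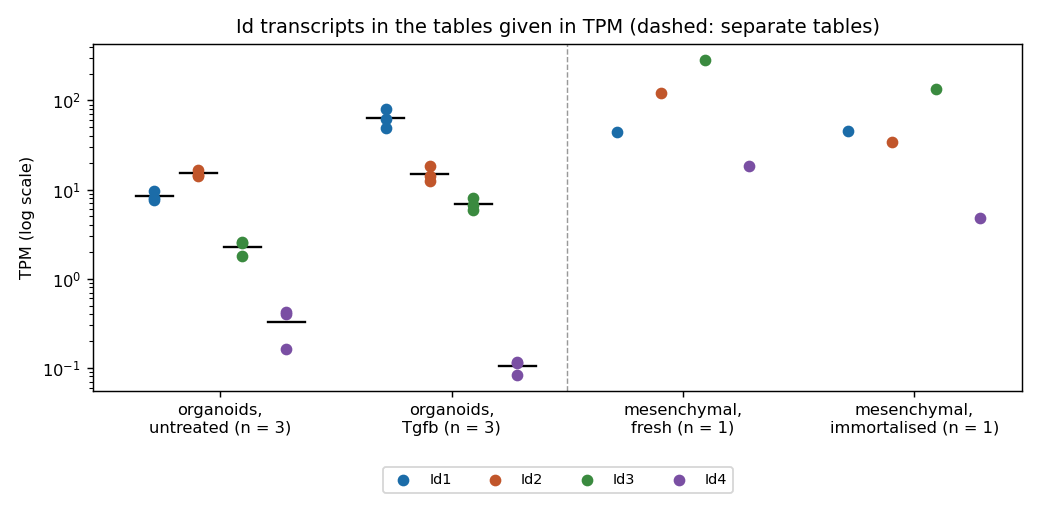
TPM (log scale) of Id1, Id2, Id3 and Id4 in the TGFb table (untreated and Tgfb, 3 samples each with a line at the mean) and the mesenchymal table (1 fresh and 1 immortalised sample), which were scaled separately. Id2 leads in untreated organoids, Id1 leads with Tgfb, and Id3 leads in both mesenchymal samples at 286 and 136 TPM.

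Among bHLH factors that bind E proteins in mesenchyme, Tcf21, a factor of mesenchymal progenitors, was at 45.6 TPM fresh and 0 immortalised. Hand2, known from limb and enteric development, was at 32.2 and 8.65 TPM, and Twist1, a factor of mesenchymal identity, was at 9.81 and 13.7 TPM. None of the 8 factors of that list passed the filter in either organoid table. The E proteins themselves were all found in the mesenchyme, with Tcf12 at 55.2 and 50.9 TPM, Tcf4 at 35.6 and 23.9 TPM and Tcf3 at 34.2 and 35.4 TPM.

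In organoids the 3 E proteins, the binding partners of Id proteins, moved in opposite directions with BMP2 and BMP4. Tcf3 rose by 1.03 with BMP2 and fell by 1.14 with BMP4 on the log2 scale. Tcf4 rose by 0.82 with BMP2 and fell by 0.75 with BMP4. Tcf12 rose by 0.27 with BMP2 and fell by 0.73 with BMP4, but the BMP2 value of Tcf12 turned to -0.19 with every sample scaled to the same total and to -0.17 after quantile normalization. The list median was 0.82 with BMP2 and -0.75 with BMP4, beside -0.03 and 0.04 over all genes. Of all genes, 36.8% rose with BMP2 and 31.4% fell with BMP4. In the direct contrast, where 66.8% of genes differed, all 3 were higher with BMP2 than with BMP4. With BMP5, BMP7 and Tgfb, 1 of 3 rose, in each case Tcf4, by 0.67, 0.51 and 1.17, beside 16.5%, 19.2% and 27.4% of all genes. With BMP3 0 of 3 passed.

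Of the gut bHLH factors that E proteins pair with, 5 of the 6 tested fell and 1 rose with BMP2, and 4 fell and 1 rose with BMP4, beside 38.4% and 31.4% of all genes lower. The gene that rose with BMP4 was Neurod1 (0.76), an endocrine factor named after its values were seen, which was at 0.36 and did not pass with every sample scaled to the same total. The list median was -2.78 with BMP2 and -2.61 with BMP4. Neurog3, which sets endocrine progenitors, went from 137 ± 37.7 normalized counts untreated (SD, n = 4) to 1.22 ± 0.0685 in the 4 BMP2 samples and 1.16 ± 1.14 in the 3 BMP4 samples. Those Neurog3 values are at the floor, since 1 read was worth 1.14 to 1.28 with BMP2 and 1.14 to 1.20 with BMP4. Each BMP2 sample held 1 read, so that SD measures the scaling and not a spread of expression. Ascl2, a stem cell factor, went from 312 ± 34.5 to 34.2 ± 9.50 and 20.5 ± 10.3. With BMP7, 2 of 6 fell, beside 13.2% of all genes: Neurog3 fell by 2.61 and Bhlha15, a secretory cell factor, fell by 1.25. With BMP5, 1 of 6 fell, beside 9.87% of all genes, and this was Neurog3, by 0.91 (limma adjusted p 0.0482). With Tgfb, 4 of 5 tested fell, beside 29.3% of all genes. The fall was led by Bhlha15, from 6.82 ± 0.263 to 1.46 ± 0.256 TPM, and Atoh1, from 6.80 ± 1.05 to 1.76 ± 0.216 TPM (SD, n = 3 each).

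Other known BMP targets, several of which feed back on the pathway, mostly rose. Of 6 tested, 4 rose with BMP2, BMP4 and BMP5 and 5 with BMP7, with list medians of 3.78, 3.54, 1.83 and 2.84. The share of all genes that rose was 36.8% for BMP2 and 33.7% for BMP4. For BMP7 this share was 19.2%, and for BMP5 it was 16.5%. Smad7, an inhibitory Smad, rose by 4.68 with BMP2 and 3.65 with BMP4, by 2.87 with BMP7 and 2.28 with BMP5, and by 3.49 with Tgfb. Smad6, the other inhibitory Smad, rose by 5.58 with BMP4, 3.88 with BMP2, 3.17 with BMP7, 2.37 with BMP5 and 1.26 with Tgfb. Hey1, a bHLH repressor, rose by 5.6 with BMP2, 3.44 with BMP4, 3.29 with BMP7 and 2.47 with BMP5. Msx1, a homeobox repressor, rose by 6.31 with BMP4, 3.68 with BMP2, 2.80 with BMP7 and 1.38 with BMP5. Atoh8, itself a bHLH factor, fell by 1.41 with BMP2 and rose by 1.17 with BMP7, and Bambi, a pseudoreceptor, did not pass with BMP2, BMP4, BMP5 or BMP7.

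Receptors and Smads of the BMP pathway had smaller list medians than its targets. Of 9 tested, 5 rose with BMP2, 4 with BMP7 and 3 with BMP5, while 4 rose and 3 fell with BMP4. Over all genes, 36.8% rose with BMP2, 19.2% with BMP7 and 16.5% with BMP5, and with BMP4 33.7% rose and 31.4% fell. List medians lay between 0.07 and 0.42, but with every sample scaled to the same total the BMP2 median of 0.42 turned to -0.04 and the BMP4 median of 0.13 to -0.27. Under that scaling 5 of the 9 fell with BMP4 and 4 with BMP2, while 2 and 3 rose. Acvr1, a type I receptor, rose by 2.79 with BMP2, 2.27 with Tgfb, 1.68 with BMP7, 1.4 with BMP5 and 0.54 with BMP4. Bmpr2, a type II receptor, rose by 1.93 with BMP2, 1.54 with Tgfb, 1.05 with BMP7, 1.04 with BMP5 and 0.43 with BMP4. Smad5, which carries the BMP signal, fell by 1.02 with BMP4 and rose by 0.42 with BMP5, 0.42 with Tgfb and 0.28 with BMP7. Smad9, which also carries that signal, rose by 3.64 with BMP4, 2.52 with BMP7 and 2.09 with BMP2, and did not pass with BMP5 (0.19). Its counts were low, at 3.3 to 10.6 normalized counts untreated and 62.8 to 128 with BMP4. Acvr2a, another type II receptor, rose by 0.83 with BMP4 and 0.42 with BMP2. Of 4 receptors and Smads of the Tgfb pathway tested, all 4 rose with BMP2 and with Tgfb and 3 with BMP5 and BMP7, while 0 rose and 1 fell with BMP4. Of all genes, 27.4% rose with Tgfb. Smad3 rose by 1.19 with BMP2 and by 1.23 with Tgfb, and was at -0.05 with BMP4. Smad2 rose by 1.08 with BMP2, and Tgfbr2, the ligand-binding receptor, rose by 1.15 with Tgfb. The one that fell with BMP4 was Tgfbr1, at -0.69, and with every sample scaled to the same total all 4 were lower with BMP4.

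Of 4 cell cycle inhibitors tested, some of them known as targets of E proteins, 3 rose with each of BMP2, BMP4, BMP5, BMP7 and Tgfb, where 16.5% (BMP5) to 36.8% (BMP2) of all genes rose, and Cdkn1b fell with BMP2 (by 0.25) and Tgfb (by 0.21). With BMP4, Cdkn1b was at -0.21 as deposited, which did not pass, and passed at -0.61 with every sample scaled to the same total. Cdkn1a, which encodes p21, went from 1445 ± 340 normalized counts untreated (SD, n = 4) to 12700 ± 1140 in the BMP2 samples and 9927 ± 1343 in the BMP4 samples. Cdkn2b, which encodes p15, went from 430.2 ± 59.6 to 1535 ± 201 and 1873 ± 204. The list median was 1.85 with BMP2, 1.53 with Tgfb, 1.51 with BMP4, 0.79 with BMP5 and 0.61 with BMP7.

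As a description over the 20 samples of the BMP table, which share libraries and scaling, the levels of Id1 and Id3 on the log2 scale had a Pearson r of 0.966, Id2 and Id3 0.929, and Id1 and Id2 0.855. Id4 was at -0.18 with Id1, 0.02 with Id2 and -0.11 with Id3. Of the 14746 genes, the 5 most like Id1 were Ifngr2 (0.981), Pmp22 (0.977), Slc25a24 (0.973), Smad7 (0.971) and Pepd (0.969). Those most like Id3 were Sct, which encodes secretin (0.975), Eno3 (0.974), Id1, Sstr1 (0.959) and Dusp11 (0.959). For Id2 they were Id3, 4930461G14Rik (0.927), Cop1 (0.926), Skp1 (0.925) and Kcnc1 (0.922). For Id4 the closest genes were less alike, with Slc30a1 at 0.890, Lnx1 at 0.874, Osgin1 at 0.870, Upf3a at 0.870 and Exoc6 at 0.867.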

How the data were processed

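mRNA libraries of 28 samples were analysed. Per the submitters' processing notes, Trim Galore, Salmon and DESeq2 were used with build GRCm39; their order, versions and annotation are not given in the sources used here. Per the series' design text there was more than 1 run of the sequencer, and no sample is tied to a run, so a run effect was not tested. In the BMP table the deposited values are a signal, read from the values as gene counts divided by a size factor per sample and rounded by the authors to 3 digits. Of 180721 values at or below 20 reads, 100% were whole multiples of 1 read within 0.05 reads beside rounding. Larger values were divided the same way and rounded, so their reads and the library sums are approximate. The TGFb and mesenchymal tables as deposited hold TPM, since each column summed to 1000000. Of the columns, 0 had no sample.

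limma 3.58.1 (R 4.3.3) was run on log2(value + 1) with an intensity trend, over genes at a mean of at least 10 (BMP table, 14746 genes, 20 samples in a single fit) or 1 TPM (TGFb table, 12959 genes), two-sided, with Benjamini-Hochberg adjustment. The design foresaw edgeR for raw counts, which no table held. Count tests on recovered reads (edgeR 4.0.16 and DESeq2 1.42.0) were alternatives and called 11108 and 11171 genes with BMP2, 9667 and 9744 with BMP4, 4202 and 4652 with BMP5, and 5036 and 5505 with BMP7. The scripts were tested on simulated data. Members, gene lists and alternatives were chosen with earlier results of these data known. The text names the members, up to 2 smallest p-values per list and comparison, all 3 E proteins and the 5 genes most correlated with each member. It also names Hand2, Tcf21, Twist1, Smad6, Smad9, Bambi, Atoh8 and Cdkn1b, chosen after their values were seen.

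Whether replicate numbers pair samples was checked from correlations of their deviations from group means. Every same-number correlation was over 0.1 for BMP3, BMP4, BMP5 and BMP7 against untreated and for BMP2 with BMP5, BMP4 with BMP5, BMP4 with BMP7 and BMP5 with BMP7 (0.108 to 0.553), so the numbers were taken to pair those samples, as a hint from the data. For the other comparisons they were not. In BMP2 against untreated, replicate III alone fell short (0.018).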

Additional observations from a re-analysis of the deposited data

Results flagged for a closer look

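Only groups of 4 samples (untreated and BMP2) were checked for a sample far from the rest, and those of 3 were not. No Id gene passed the limit for such a sample in a group of 4. Among 68 such groups of named genes, 5 had 1 untreated sample whose gap to the others was large for the group's range, and chance gives about 1 in 20. Ascl2 was at 363 normalized counts in untreated replicate VI against 290 to 298 in the others. Neurog3 was at 193 in replicate IV against 110 to 123, and Acvr2b was at 89.2 in replicate VI against 124 to 127. Bambi was at 102 in replicate II against 41.3 to 46.5, and Smad2 was at 1370 in replicate II against 1190 to 1210.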

How the results depend on the processing

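Of 51 results for the 4 Id genes, 26 kept their direction and side of the threshold in every alternative, and of 1463 alternative values 1360 did, 65 lost a call, 18 gained one and 20 changed sign. The calls of Id1 and Id3 with BMP2, BMP4, BMP5, BMP7 and Tgfb and of Id2 with BMP2, BMP4 and BMP7 were among those kept. Values are log2 differences, and the causes were not tested. With every sample scaled to the same total, calls were lost for Id1 (0.22 for BMP2 against BMP7, 0.17 for BMP4 against BMP7), Id2 (0.62 for BMP2 against BMP5, 0.54 for BMP4 against BMP7) and Id3 (0.84 for BMP2 against BMP7). Calls were gained for Id4 (-0.82 for BMP2 against BMP5, -0.99 for BMP2 against BMP7), and Id1 with BMP3 turned to 0.000276. After quantile normalization, calls were lost for Id1 (0.33 for BMP2 against BMP7, 0.29 for BMP4 against BMP7), Id2 (0.71 for BMP4 against BMP7) and Id4 (-0.70 with BMP2), and gained for Id4 between BMP4 and BMP5 (1.03). With the filter at a mean of 1, Id1 (0.50) and Id2 (0.87) lost the call between BMP4 and BMP7, and Id4 lost the F-test, whose value is the largest difference among ligands (1.21). Id4 also lost the F-test with a pseudocount of 0.1 (1.25), by edgeR (1.20) and by DESeq2 (1.25). With only the compared groups in the fit, Id1 between BMP4 and BMP7 (0.50) and Id2 between BMP2 and BMP5 (1.04) lost the call, and Id3 between BMP2 and BMP4 gained it (-0.41). By edgeR, Id1 (0.41) and Id2 (0.75) lost the call between BMP4 and BMP7, Id2 lost it between BMP2 and BMP4 (-0.72), and Id2 between BMP2 and BMP7 turned to 0.027. By DESeq2 that value was 0.10, and calls were gained between BMP5 and BMP7 for Id1 (-1.14) and Id3 (-2.16) and with BMP5 for Id2 (0.83).

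With the replicate number as a block, calls were gained for Id2 with BMP5 (0.62), Id3 between BMP5 and BMP7 (-2.49) and Id4 between BMP4 and BMP5 (0.79), BMP4 and BMP7 (0.59) and BMP2 and BMP7 (-0.52). Id1 with BMP3 (0.036), Id2 with BMP3 (-0.064) and Id2 between BMP2 and BMP7 (0.10) changed sign, and the block changed no other call. For BMP2 against untreated, where the numbers did not pair all samples (correlation 0.018 for replicate III), genes called went from 11077 to 11858 under the block.

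Leaving out 1 sample at a time gave the following ranges where a call or a sign changed. Against untreated they were -0.095 to 0.11 (Id1, BMP3), -0.11 to 0.16 (Id2, BMP3), -0.40 to 0.16 (Id3, BMP3), -0.44 to 0.086 (Id4, BMP3), 0.31 to 1.07 (Id2, BMP5), -0.95 to -0.52 (Id4, BMP2), -0.39 to 0.093 (Id4, BMP7) and -0.19 to 0.073 (Id2, Tgfb). Between BMP2 and BMP4 they were -0.094 to 0.33 (Id1) and -1.10 to -0.65 (Id2), and between BMP2 and BMP5 0.70 to 1.46 (Id2). Between BMP2 and BMP7 they were 0.46 to 0.78 (Id1), -0.23 to 0.22 (Id2) and 1.02 to 1.55 (Id3). Between BMP4 and BMP7 they were 0.29 to 0.71 (Id1) and 0.69 to 1.03 (Id2), and between BMP4 and BMP5 0.42 to 1.14 (Id4). Between BMP5 and BMP7 they were -1.34 to -0.98 (Id1), -3.19 to -1.89 (Id3) and -0.55 to 0.17 (Id4), and the F-test value of Id4 ranged from 1.10 to 1.35. Id1 between BMP5 and BMP7 passed without BMP4 replicate VI as well (adjusted p 0.0292), and Id2 with BMP5 passed without BMP5 replicate VI (adjusted p 0.0452). A filter at a mean of 50 left out Id4, and one at 10 TPM left out Id3 in the TGFb table. Low counts limit the precision of Id4 (14.8 to 62.2 normalized counts) and of Id3 in untreated samples (20.4 to 33.7).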
